A study of Mus musculus with 6 samples.

Results

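Expression of 10 genes of the growth hormone axis and of IGF binding was followed in livers of FRG mice. The genes were Ghr, Stat5a, Stat5b, Socs2, Cish, Bcl6, Igf1, Igfals, Igfbp1 and Igfbp2, and every probe set whose only gene symbol in the array annotation was one of these was kept. This gave 23 probe sets of 45037, for 10 of 18193 genes. All mice were male, 12 weeks old, of C57Bl/6J background and triple knockouts (Fah-/-, Rag2-/- and Il2rg-/-), so that both groups lacked the last enzyme of tyrosine breakdown as well as mature T, B and NK cells. FRG-7dNTBC mice (n = 3) had gone 7 days without nitisinone (NTBC), a drug that blocks the tyrosine-degrading enzyme Hpd upstream of Fah. FRG+NTBC mice (n = 3) stayed on 16 mg/L of it in drinking water with dextrose. Chow was low in tyrosine and phenylalanine. Whole-liver RNA of each mouse was hybridised to 1 Affymetrix mouse genome array, and no wild-type liver was among the arrays, so the comparison concerns drug withdrawal in a Fah-deficient liver and not Fah loss itself.

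Growth hormone, released by the pituitary in pulses, binds its receptor Ghr on hepatocytes, and the receptor-bound kinase Jak2 then phosphorylates Stat5a and Stat5b, which enter the nucleus and act on target genes. Among the targets in liver are Igf1, the main circulating growth factor of the axis, Igfals, the acid-labile subunit that keeps Igf1 in a long-lived complex in blood, and Socs2 and Cish, which dampen the receptor's signal. Igfbp1 and Igfbp2 are liver-secreted proteins that bind Igf1 and Igf2. Insulin and feeding lower Igfbp1 transcription, and male mice use pulsatile growth hormone and Stat5b to set the sex-biased expression of many liver genes.

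Promoter windows are shown for 4 members whose transcription Stat5 or insulin is known to control. Windows of 300 bases, from 250 before to 50 after an annotated transcription start, came from RefSeq (GRCm38.p6), which gave 16 windows for 9 of the 10 genes. The windows of Bcl6 (chr16:23981234-23981533, minus strand), Cish (chr9:107296409-107296708, plus strand), Igfbp1 (chr11:7197537-7197836, plus strand) and Igf1 (chr10:87860861-87861160, plus strand) follow 5′ to 3′, with motif matches in capitals.
Bcl6: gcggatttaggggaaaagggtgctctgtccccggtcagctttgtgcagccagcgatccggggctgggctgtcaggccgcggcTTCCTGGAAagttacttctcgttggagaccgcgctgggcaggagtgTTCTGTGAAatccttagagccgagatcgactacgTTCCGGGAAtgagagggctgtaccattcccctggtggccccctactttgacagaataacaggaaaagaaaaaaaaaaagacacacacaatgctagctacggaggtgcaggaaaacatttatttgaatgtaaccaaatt
Cish: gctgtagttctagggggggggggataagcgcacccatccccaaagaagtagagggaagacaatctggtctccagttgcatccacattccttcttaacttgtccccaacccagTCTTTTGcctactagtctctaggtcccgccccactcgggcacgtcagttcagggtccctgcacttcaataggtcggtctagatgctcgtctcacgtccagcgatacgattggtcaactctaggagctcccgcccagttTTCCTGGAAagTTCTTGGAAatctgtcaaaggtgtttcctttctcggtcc
Igfbp1: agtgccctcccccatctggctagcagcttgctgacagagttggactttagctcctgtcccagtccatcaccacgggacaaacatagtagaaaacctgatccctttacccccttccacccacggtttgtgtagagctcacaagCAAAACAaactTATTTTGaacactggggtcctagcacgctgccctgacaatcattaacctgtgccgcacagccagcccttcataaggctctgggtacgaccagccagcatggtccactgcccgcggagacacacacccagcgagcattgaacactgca
Igf1: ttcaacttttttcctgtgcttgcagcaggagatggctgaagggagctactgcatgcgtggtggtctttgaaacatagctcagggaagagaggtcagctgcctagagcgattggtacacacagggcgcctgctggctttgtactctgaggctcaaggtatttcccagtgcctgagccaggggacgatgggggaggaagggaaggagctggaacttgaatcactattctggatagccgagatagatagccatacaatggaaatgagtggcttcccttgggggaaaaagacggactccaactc
Capitals in Bcl6, and the TTC to GAA stretches in Cish, mark TTCNNNGAA, the palindromic core that Stat proteins are known to bind. Capitals in Igfbp1, and the first stretch in Cish, mark CAAAANA, the core of the insulin response element, which was searched on both strands. Bcl6 held 3 Stat matches in this window, Cish 2 and the shown Igf1 window none, while a second Bcl6 window and 2 of the 3 Igfals windows held 1 each. In all, 5 of the 16 windows had a Stat match, against 8.3% of 32851 windows of all genes, and 2 of the 16 had at least 2 matches, against 0.457%. An insulin response match was found in 2 of the 16 windows, against 18.6% of all windows. Igfbp1 carried 2 such matches, which start 108 and 97 bases before the start site, and 3.14% of all windows hold at least 2. A match is a stretch of letters only, and binding was not measured here.

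Most of the axis was lower in FRG-7dNTBC livers than in FRG+NTBC livers. Of the 23 probe sets, 14 were lower and 2 higher at a Benjamini-Hochberg adjusted p under 0.05 (limma, over all probe sets), and 7 did not pass. Over the whole array 27.9% of probe sets were called, 13.9% lower and 14% higher. Scaling the arrays to one 75th percentile changed that even split to 9669 lower and 5366 higher (35.7% of calls on the higher side, against 50.1%) and moved the median over the whole array to a log2 fold change of -0.21, against -0.08 as deposited, while the 23 had a median of -0.95 as deposited. Values of the groups did not overlap at 18 of the 23 probe sets, against 44.1% of all. Among the 23, 6 were at least 5-fold lower, against 0.637% of all. Counted as genes, each at its brightest probe set (largest log2 mean over the 6 arrays), 7 of the 10 were lower (12.7% of all genes) and 1 was higher (17.4% of all genes).

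**Figure D1:**
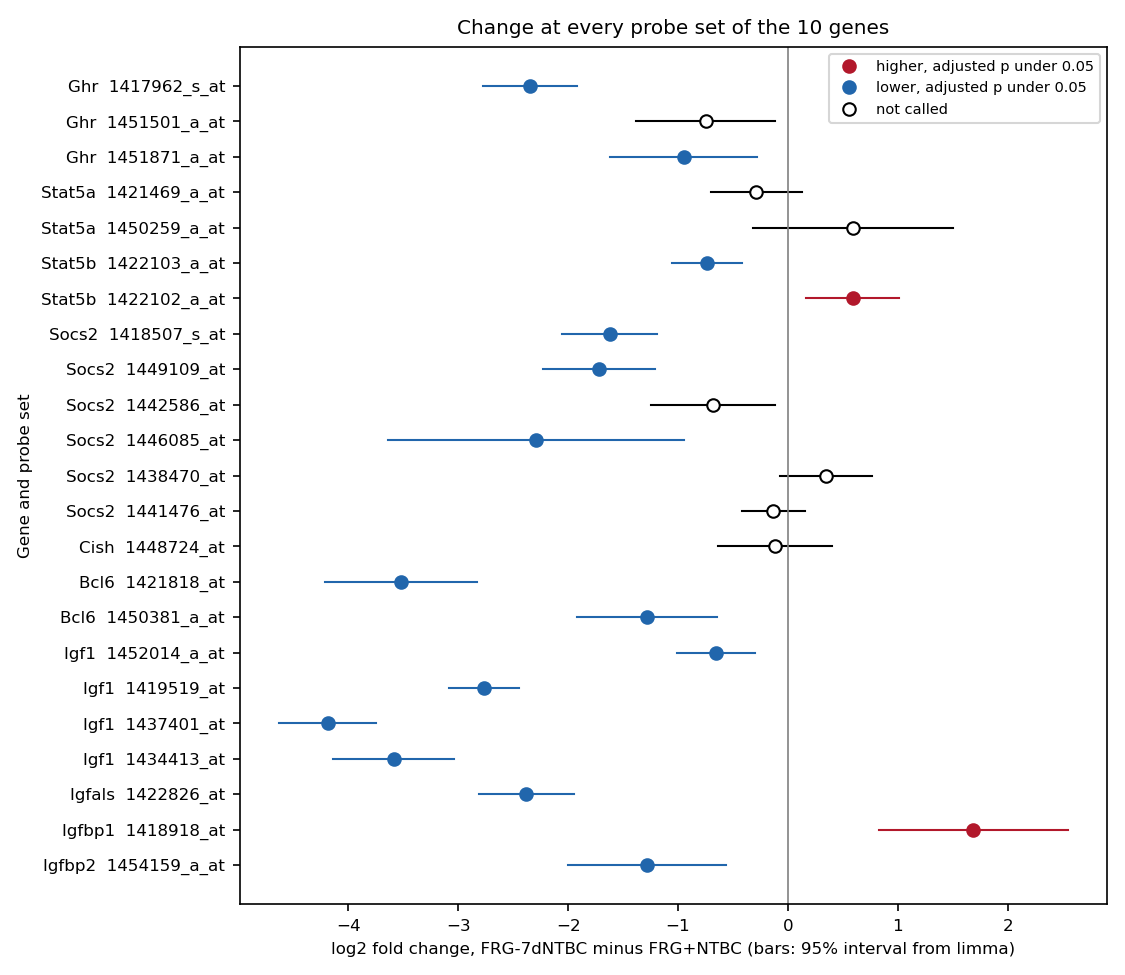
Log2 fold change of FRG-7dNTBC over FRG+NTBC livers (x axis) at each of the 23 probe sets (y axis), with 95% intervals from limma. Filled points passed an adjusted p under 0.05: 14 lie left of 0 and 2, Igfbp1 and 1 probe set of Stat5b, lie right of it, while open points did not pass.

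The arrays of FRG-7dNTBC livers had median intensities of 33.1 to 34.3, and those of FRG+NTBC livers 35.3 to 36.5. Correlation of log2 values across probe sets was 0.98 to 0.99 within FRG-7dNTBC, 0.988 to 0.993 within FRG+NTBC and 0.93 to 0.955 between the groups. Fah, whose probe set may lie outside the disrupted part, averaged 95.5 ± 20.2 in FRG-7dNTBC and 198 ± 16.5 in FRG+NTBC livers (SD, n = 3 each), and both groups carry the knockout, so it does not check the group labels. Of 8 hepatocyte markers, 3 were lower (Cps1, Hnf4a and Tat) and the other 5, Alb among them, did not pass; none was listed at 0, and their summed intensity was 106150 to 113380 in FRG-7dNTBC and 113530 to 121720 in FRG+NTBC livers. Of 10 macrophage markers, 6 were higher and the other 4 did not pass. The 10 summed to 1712.5 to 4217.2 in FRG-7dNTBC and 1674.7 to 2223.8 in FRG+NTBC livers. Csf1r, which did not pass, weighed most in these sums, with means of 1292.8 in FRG-7dNTBC and 1060.8 in FRG+NTBC livers. Stellate cell markers (1 of 10 higher) summed to 3486 to 7294.7 in FRG-7dNTBC and 3235.4 to 5057.3 in FRG+NTBC livers. Sinusoidal endothelial markers (2 of 10 higher) summed to 2927.2 to 3817 in FRG-7dNTBC and 1955.1 to 3038.8 in FRG+NTBC livers. Cholangiocyte markers (1 of 8 higher) summed to 260.19 to 454.04 in FRG-7dNTBC and 271.35 to 324.42 in FRG+NTBC livers. Of all genes at their brightest probe sets, 17.4% were higher and 12.7% lower. The counts of higher stellate cell, sinusoidal endothelial and cholangiocyte markers lay near that share. The part of these cell populations in the results that follow was not tested, and in bulk liver fewer cells of a type and less RNA per cell cannot be told apart. As a gauge of dim signal, 11 markers of the lymphocytes that FRG mice lack were used. They averaged 8.06 to 96.7 in FRG-7dNTBC and 9.04 to 102 in FRG+NTBC livers. In both groups, 6 of the 23 probe sets lay in that range. The study's histology describes small lymphoid cells infiltrating the liver after withdrawal. None of the 11 markers was called here, and what those cells were was not tested.

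Signal for Ghr, the growth hormone receptor, was clearly lower after withdrawal. Its brightest probe set (1417962_s_at) read 1530.7, 1595.7 and 1128.4 in FRG-7dNTBC livers, against 5873.5, 7538.2 and 8135.4 in FRG+NTBC livers. All 3 FRG-7dNTBC values lay far below the lowest FRG+NTBC value. The difference was 5.07-fold (log2 fold change -2.34, SE 0.19, limma adjusted p = 0.000136). The other Ghr probe sets gave smaller fold changes. Probe set 1451871_a_at read 94.35, 165.42 and 73.52 in FRG-7dNTBC livers, against 168.9, 196.72 and 247.28 in FRG+NTBC livers (log2 fold change -0.95, limma adjusted p = 0.0434). Its groups nearly touched, and this call was lost when any mouse except FRG-7dNTBC replicate 2 was left out (limma adjusted p = 0.0655 to 0.133) and with the replicate number as a block (0.0543). Probe set 1451501_a_at averaged 949 ± 396 in FRG-7dNTBC and 1499 ± 31.2 in FRG+NTBC livers (SD, n = 3 each), a log2 fold change of -0.75 that did not pass (limma adjusted p = 0.0785). Leaving out FRG-7dNTBC replicate 2, whose 1370 was the nearest to the FRG+NTBC values, gave -1.06 and an adjusted p of 0.00597. This probe set also passed under scaling to the 75th percentile (limma adjusted p = 0.0292), quantile normalization (0.0294) and array weights (0.0174). In mice, the Ghr gene makes both the full receptor and, by alternative splicing, a soluble growth hormone binding protein, and which of these each probe set reads was not determined.

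**Figure D2:**
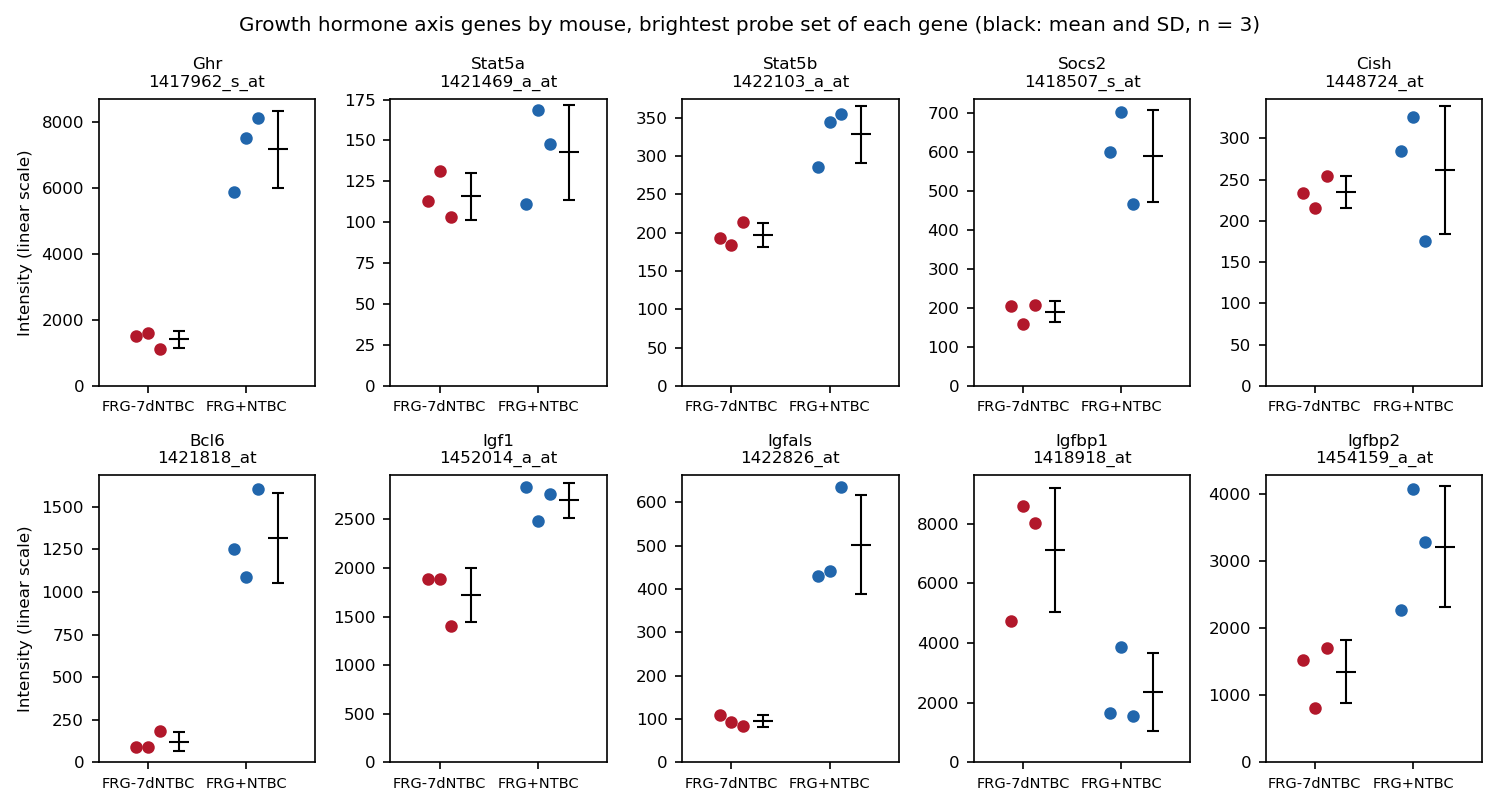
Intensity (linear y axis from 0) of each of the 10 genes at its brightest probe set, 1 point per mouse, with the mean and SD of each group in black (n = 3). FRG-7dNTBC values lie below all FRG+NTBC values for Ghr, Stat5b, Socs2, Bcl6, Igf1, Igfals and Igfbp2 and above them for Igfbp1, and the groups overlap for Stat5a and Cish.

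The signal transducers gave smaller values and a mixed picture. Stat5b, the form that dominates growth hormone signalling in liver, gave 192.67, 183.55 and 213.78 in FRG-7dNTBC livers, against 286.03, 344.89 and 354.59 in FRG+NTBC livers at its brightest probe set (1422103_a_at). The groups were well apart, at 1.67-fold lower (log2 fold change -0.74, SE 0.14, limma adjusted p = 0.00544). At the other Stat5b probe set (1422102_a_at) the direction was the opposite, with 125.37, 97.01 and 85.63 in FRG-7dNTBC livers against 80.45, 63.12 and 60.13 in FRG+NTBC livers. These groups did not overlap either, but the gap was narrow (log2 fold change 0.59, limma adjusted p = 0.045). That call was lost under scaling to the 75th percentile (adjusted p = 0.0881), under quantile normalization (0.0601) and without any of 4 mice: FRG-7dNTBC replicate 1 or 2 (0.142 and 0.0687) or FRG+NTBC replicate 2 or 3 (0.139 and 0.132). It was also lost when variances were moderated robustly with a trend or left unmoderated. The FRG+NTBC mean of 1422102_a_at lay within the range of the absent lymphocyte markers. Stat5a, the close paralog of Stat5b, averaged 116 ± 14.4 in FRG-7dNTBC and 143 ± 29.1 in FRG+NTBC livers (SD, n = 3 each) at 1421469_a_at, with overlapping groups. The log2 fold change was -0.29 (95% interval -0.70 to 0.13, limma adjusted p = 0.281). Its dim probe set 1450259_a_at read 19.84, 32.9 and 9.85 in FRG-7dNTBC livers, against 9.51, 14.32 and 13.74 in FRG+NTBC livers (log2 fold change 0.59, limma adjusted p = 0.307). Without FRG-7dNTBC replicate 3, the lowest of its group, that value became 1.05 with an adjusted p of 0.0183. The paralogs are similar in sequence, and whether these probe sets tell them apart was not checked.

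Socs2 and Cish, both feedback inhibitors that Stat5 switches on, did not give the same call. Socs2 gave 205.07, 158.68 and 207.94 in FRG-7dNTBC livers, against 600.49, 704.28 and 467.88 in FRG+NTBC livers at 1418507_s_at. Every FRG-7dNTBC value was less than the smallest FRG+NTBC value by a wide margin, and the fall was 3.08-fold (log2 fold change -1.62, SE 0.19, limma adjusted p = 0.000613). A second probe set (1449109_at) gave much the same picture, with 159.79, 206.5 and 135.3 in FRG-7dNTBC livers against 484.38, 719.08 and 458.25 in FRG+NTBC livers (3.29-fold lower, log2 fold change -1.72, limma adjusted p = 0.000987). The remaining 4 Socs2 probe sets were dim. One of them, 1446085_at, was called lower (log2 fold change -2.29, SE 0.59, limma adjusted p = 0.0216), at 13.83, 17.39 and 17.27 in FRG-7dNTBC livers against 156.5, 120.26 and 25.99 in FRG+NTBC livers. FRG+NTBC replicate 3 sat apart from its group there, close to the FRG-7dNTBC values, and the call was lost without FRG-7dNTBC replicate 1 (adjusted p = 0.0759) and without FRG+NTBC replicate 1 or 2 (0.0707 and 0.088). Probe sets 1442586_at, 1438470_at and 1441476_at did not pass, with log2 fold changes of -0.68, 0.35 and -0.13. Without FRG+NTBC replicate 3, 1442586_at passed at -0.95 (limma adjusted p = 0.0135).

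Cish has 1 probe set (1448724_at), which read 233.94, 215.27 and 254.23 in FRG-7dNTBC livers, against 284.05, 326.29 and 176.07 in FRG+NTBC livers. The FRG-7dNTBC values lay inside the FRG+NTBC range, since FRG+NTBC replicate 3 was the lowest of all 6 mice. No difference was detected (log2 fold change -0.12, SE 0.22, 95% interval -0.64 to 0.40, limma adjusted p = 0.737). The interval does not reach the log2 fold change of -1.62 seen for Socs2, though the difference between the 2 genes was not itself tested. Without FRG+NTBC replicate 2 the Cish value changed sign to 0.06 (adjusted p = 0.869).

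Bcl6, a transcriptional repressor that growth hormone lowers through Stat5 and that is higher in male than in female mouse liver, had the largest fold of the regulators here. At 1421818_at it read 88.03, 88.65 and 186.11 in FRG-7dNTBC livers, against 1252, 1089.9 and 1606.8 in FRG+NTBC livers. FRG-7dNTBC replicate 3 stood above the other mice of its group and still far below any FRG+NTBC mouse. The fall was 11.5-fold (log2 fold change -3.52, SE 0.30, limma adjusted p = 0.000182). A dimmer Bcl6 probe set (1450381_a_at) averaged 32.6 ± 5.98 in FRG-7dNTBC and 83.1 ± 35.3 in FRG+NTBC livers (SD, n = 3 each), with no overlap and a log2 fold change of -1.28 (limma adjusted p = 0.0107). Both of these means lay within the range of the absent lymphocyte markers, so the size of this difference is uncertain.

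Igf1, the secreted growth factor through which the liver passes on the hormone's signal, was lower at all 4 of its probe sets, by amounts that differed widely. At 1437401_at it read 219.79, 190.02 and 274.37 in FRG-7dNTBC livers, against 3281.2, 4513.4 and 4672.6 in FRG+NTBC livers. No value of one group came near the other, and this 18.2-fold fall (log2 fold change -4.19, SE 0.19, limma adjusted p = 2e-05) was the largest of the 23 probe sets. At 1434413_at the values were 233.94, 206.5 and 237.21 in FRG-7dNTBC livers, against 1833, 2998.5 and 3615.6 in FRG+NTBC livers (12.0-fold lower, log2 fold change -3.59, limma adjusted p = 6.9e-05). At 1419519_at they were 388.02, 407.31 and 369.65 in FRG-7dNTBC livers, against 2336.3, 2592.3 and 3040.3 in FRG+NTBC livers (6.81-fold lower, log2 fold change -2.77, limma adjusted p = 2.4e-05). The FRG-7dNTBC mice were close to one another at both, while the FRG+NTBC mice spread more at 1434413_at, with replicate 1 lowest.

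The brightest Igf1 probe set, 1452014_a_at, gave a much smaller difference. It read 1884.5, 1884.5 and 1398.8 in FRG-7dNTBC livers, against 2836.7, 2486.7 and 2759.1 in FRG+NTBC livers. The groups still did not overlap, at 1.58-fold lower (log2 fold change -0.66, SE 0.15, limma adjusted p = 0.0154). That call was lost without FRG+NTBC replicate 1 (adjusted p = 0.0519) or replicate 3 (0.0507). Within each mouse, the log2 ratio of 1437401_at to 1452014_a_at was -3.31 to -2.35 in FRG-7dNTBC livers and 0.21 to 0.86 in FRG+NTBC livers, so that the probe sets of this gene gave the same direction but sizes that were far apart (difference of their log2 fold changes -3.53). Ghr showed the like on a smaller scale, with log2 ratios of 1451501_a_at to 1417962_s_at of -0.95 to -0.22 in FRG-7dNTBC and -2.41 to -2.00 in FRG+NTBC livers. For Bcl6 the ratio of 1450381_a_at to 1421818_at was -2.73 to -1.17 in FRG-7dNTBC and -4.40 to -3.70 in FRG+NTBC livers. For Stat5b the ratio of 1422102_a_at to 1422103_a_at was -1.32 to -0.62 in FRG-7dNTBC and -2.56 to -1.83 in FRG+NTBC livers. Bcl6 1450381_a_at lay within the range of the absent lymphocyte markers in both groups, and Stat5b 1422102_a_at did in FRG+NTBC livers. The sizes of the Bcl6 and Stat5b ratios are thus uncertain. All of the ratios given were chosen after the values were seen, and the transcripts that each probe set reads were not determined.

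**Figure D3:**
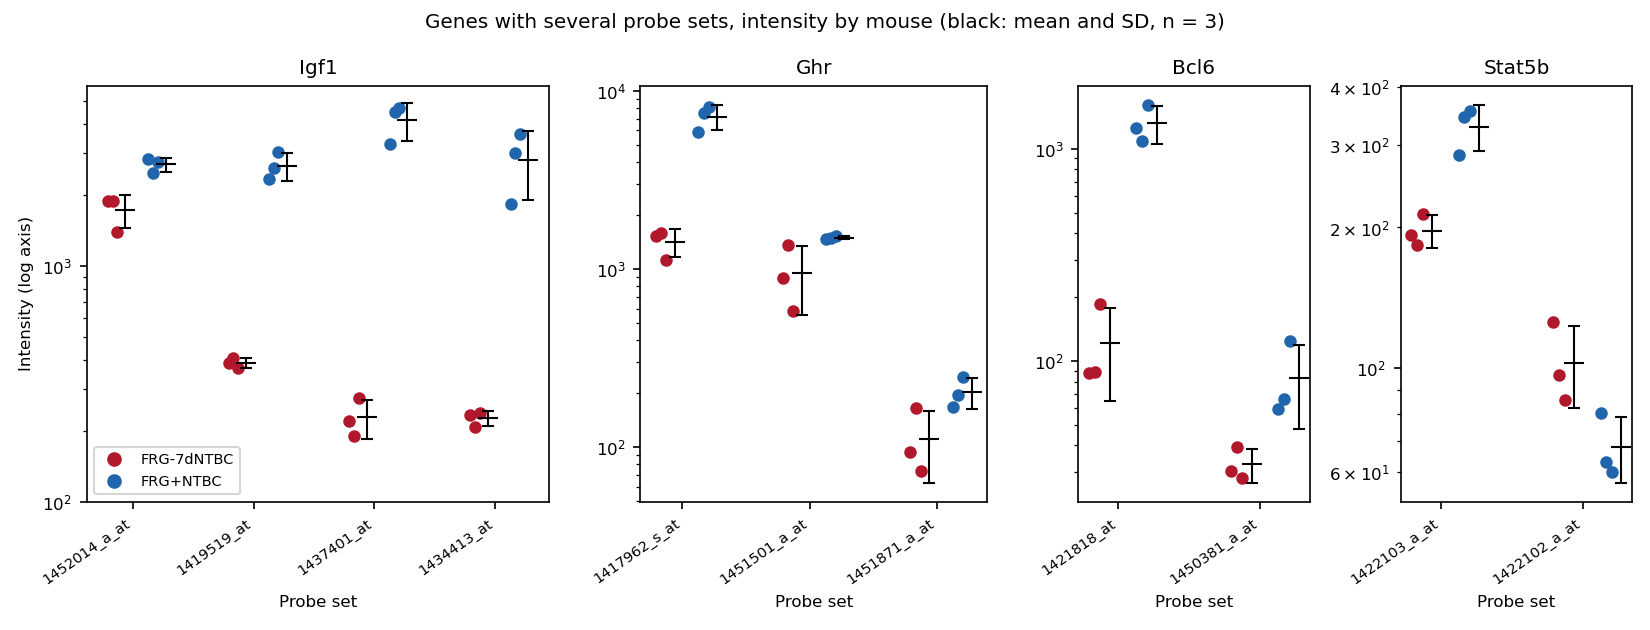
Intensity (log y axis) at each probe set of Igf1, Ghr, Bcl6 and Stat5b, 1 point per mouse, with the group mean and SD in black (n = 3). The distance between FRG-7dNTBC and FRG+NTBC points is wide at 3 Igf1 probe sets and narrow at 1452014_a_at, and the order of the groups is turned round at Stat5b 1422102_a_at.

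Igfals, the partner that holds Igf1 in the circulating complex, was lower as well. It read 109.9, 93.7 and 83.29 in FRG-7dNTBC livers, against 430.54, 442.64 and 634.73 in FRG+NTBC livers. The FRG-7dNTBC values were tightly grouped and the highest was under the lowest FRG+NTBC value, a 5.21-fold fall (log2 fold change -2.38, SE 0.19, limma adjusted p = 0.000132). Its FRG-7dNTBC mean of 95.6 lay within the range of the absent lymphocyte markers, at its upper end, so the size of the fall is uncertain.

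The pair of binding proteins moved in opposite directions. Igfbp1 read 4737.8, 8599.3 and 8023.4 in FRG-7dNTBC livers, against 1652, 3848.3 and 1541.4 in FRG+NTBC livers. All FRG-7dNTBC values exceeded the FRG+NTBC values, with FRG+NTBC replicate 2 the nearest of its group, and Igfbp1 was the only one of the 10 genes higher at its brightest probe set (3.22-fold, log2 fold change 1.69, SE 0.37, limma adjusted p = 0.0117). Igfbp2 read 1530.7, 814.63 and 1698.4 in FRG-7dNTBC livers, against 2272.4, 4067.7 and 3281.2 in FRG+NTBC livers. The groups did not overlap, and the fall was 2.43-fold (log2 fold change -1.28, SE 0.31, limma adjusted p = 0.0176). The Igfbp2 call was lost without FRG+NTBC replicate 2 (log2 fold change -1.09, adjusted p = 0.0733) or replicate 3 (-1.24, 0.0592). Feeding state, to which Igfbp1 responds, was not recorded in the labels.

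The spread between mice of 1 group was wider at the median of these probe sets than at the median of the array. The median within-group SD of log2 values over the 23 probe sets was 0.26 in FRG-7dNTBC and 0.30 in FRG+NTBC livers, against 0.17 in either group over all probe sets, and the largest within the FRG+NTBC group was 1.40, at Socs2 1446085_at.

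Of 25 measured genes that act beside the 10, such as kinases, adaptors, phosphatases, receptors and further binding proteins, 6 were higher (17.4% of all genes were) and 6 lower (12.7% of all genes were) at their brightest probe sets, and 13 did not pass, with a median log2 fold change of -0.14 against -0.05 over all genes. Igf2, the fetal growth factor of the family, read 141.04, 79.34 and 232.32 in FRG-7dNTBC livers, against 36, 49.52 and 38.05 in FRG+NTBC livers (log2 fold change 1.75, limma adjusted p = 0.00739). Igf2 signal was thus higher in each FRG-7dNTBC mouse than in any FRG+NTBC mouse, although it stayed modest. Grb10, an adaptor that restrains insulin and IGF receptors, read 202.25, 133.44 and 152.22 in FRG-7dNTBC livers, against 53.45, 55.72 and 60.97 in FRG+NTBC livers (SE of the log2 fold change 0.17, limma adjusted p = 0.000593). Insr, the insulin receptor, read 613.11, 504.95 and 719.08 in FRG-7dNTBC livers, against 1530.7, 1488.9 and 1398.8 in FRG+NTBC livers (2.43-fold lower, log2 fold change -1.28, limma adjusted p = 0.000738). Groups were well apart for Grb10 and for Insr. Only the brightest probe set was called for these genes: 1 of 2 for Igf2, 1 of 3 for Grb10 and 1 of 3 for Insr. The FRG+NTBC means of Igf2 and Grb10 lay within the range of the absent lymphocyte markers, so the size of these differences is uncertain.

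The insulin receptor substrates Irs1 and Irs2, which dock to Insr and to the IGF receptor, moved apart. Irs1 was higher, at 1002.9, 749.61 and 942.27 in FRG-7dNTBC livers against 477.71, 522.76 and 604.67 in FRG+NTBC livers (log2 fold change 0.74, limma adjusted p = 0.00989). Irs2 was lower, at 263.2, 219.79 and 227.54 in FRG-7dNTBC livers against 424.61, 347.29 and 382.68 in FRG+NTBC livers (log2 fold change -0.70, limma adjusted p = 0.00669). Groups did not overlap for either substrate. Igfbp4, another IGF binding protein, was lower, at 5996.9, 5480.2 and 4182.1 in FRG-7dNTBC livers against 10441, 10441 and 10016 in FRG+NTBC livers (log2 fold change -0.997, limma adjusted p = 0.00246). Igfbp7, a more distant relative with low affinity for IGFs, was higher by a log2 fold change of 0.84 (limma adjusted p = 0.0352), a call lost under both scaling alternatives (0.0543 and 0.0899) and without FRG-7dNTBC replicate 1 (0.0948) or FRG+NTBC replicate 2 (0.126) or 3 (0.0902). Igfbp4 was called lower at 4 of its 6 probe sets, and Igfbp7 higher at 1 of 3.

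The kinase and the IGF receptor gave no call. Jak2 read 261.38, 242.19 and 377.41 in FRG-7dNTBC livers, against 424.61, 347.29 and 335.46 in FRG+NTBC livers, with overlap (log2 fold change -0.35, limma adjusted p = 0.218). Without FRG-7dNTBC replicate 3, the highest of its group, it passed at an adjusted p of 0.0361. Igf1r, the receptor for Igf1, is scarce in hepatocytes, and its log2 fold change was -0.03 (limma adjusted p = 0.899). Its means of 62.3 in FRG-7dNTBC and 63.2 in FRG+NTBC livers lay within the range of the absent lymphocyte markers. Socs3, the feedback inhibitor of cytokine signalling, was at -0.70 (limma adjusted p = 0.179), with FRG+NTBC replicate 2 at 652.58 and the other FRG+NTBC mice at 313 and 224.41. Igfbp3, the binding protein of the Igfals complex, was at 0.30 (limma adjusted p = 0.71) and spread over 216.77 to 652.58 in FRG-7dNTBC and 157.59 to 584.07 in FRG+NTBC livers.

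Genes that pulsatile growth hormone keeps high in male mouse liver were examined next, since all mice were male. This list was chosen with earlier results of these data known, so its count is not an independent check. Of 15 genes measured, 10 were lower, against 12.7% of all genes, and 5 did not pass. The median log2 fold change was -1.40, against -0.05 over all genes. Not passing were the bright genes Cyp4a12a (log2 fold change -0.42), Ugt2b1 (0.10) and Gstp1 (-0.11). Ugt2b38 and Moxd1 did not pass either, and both averaged within the range of the absent lymphocyte markers. The lower genes with the largest changes are given below, and the others ranged from -1.61 (Cyp7b1) to -0.76 (Cyp2d9). Hsd3b5, a steroid-metabolizing enzyme of male liver, read 12.55, 15.89 and 13.45 in FRG-7dNTBC livers, against 625.99, 2610.3 and 4672.6 in FRG+NTBC livers (log2 fold change -7.15, limma adjusted p = 0.000197). Slco1a1, an organic anion transporter, read 41.07, 38.59 and 32.45 in FRG-7dNTBC livers, against 1097.5, 2817.1 and 2977.7 in FRG+NTBC livers (log2 fold change -5.82, limma adjusted p = 5.3e-05). In both genes the FRG-7dNTBC mice were uniformly dim, while FRG+NTBC replicate 1 was the lowest mouse of its group. The fatty acid elongase Elovl3 (log2 fold change -4.68), the serpin pseudogene Serpina4-ps1 (-5.10) and the complement component C6 (-2.11) were lower too, with limma adjusted p-values of 0.000145, 8e-06 and 0.000742. For Hsd3b5, Slco1a1, Elovl3 and Serpina4-ps1 the FRG-7dNTBC means lay within the range of the absent lymphocyte markers (8.06 to 96.7), so the direction is measured but the size of these 4 differences is not.

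Of 13 measured female-biased liver genes, 4 were higher (17.4% of all genes were), 4 lower (12.7% of all genes were) and 5 did not pass, and their median log2 fold change was -0.01 against -0.05 over all genes. The 5 not passing (Cyp2b13, Cyp3a44, Sult3a1, Cux2 and Cyp17a1) averaged within or below the range of the absent lymphocyte markers in both groups. The same held for Cyp3a16, counted as higher, at means of 8.07 in FRG-7dNTBC and 5.10 in FRG+NTBC livers. These dim genes limit what the counts and the median show. Cyp2b9, a cytochrome P450 of female liver, read 572.05, 196.72 and 436.55 in FRG-7dNTBC livers, against 81.57, 58.08 and 29.45 in FRG+NTBC livers (log2 fold change 2.82, limma adjusted p = 0.00298). Cd36, a fatty acid transporter, read 2592.3, 2149.8 and 2385.4 in FRG-7dNTBC livers, against 382.68, 340.14 and 424.61 in FRG+NTBC livers (6.22-fold higher, log2 fold change 2.64, limma adjusted p = 2.8e-05). Both were higher in every FRG-7dNTBC mouse. For Cyp2b9, Cyp2b10, Hao2 and Abcd2 the mean of the lower group lay within the range of the absent lymphocyte markers, so the sizes given are uncertain. Cyp2b10, which drug-sensing nuclear receptors also induce, was higher by a log2 fold change of 2.47 (limma adjusted p = 0.000444), at a probe set that can match several transcripts of this close-knit family. On the lower side were Hao2, a peroxisomal oxidase (log2 fold change -2.01, limma adjusted p = 0.015), and Abcd2, a peroxisomal fatty acid transporter (-1.77, 0.000902), and the Hao2 call was lost without FRG+NTBC replicate 1 (0.0602) or 3 (0.0576). Abcd2 was called at 1 of its 4 probe sets. Cux2, a transcription factor that is specific to female mouse liver and that growth hormone and Stat5 regulate, was not called (log2 fold change -0.17, limma adjusted p = 0.379), at 54.19, 50.21 and 47.5 in FRG-7dNTBC livers against 60.97, 58.89 and 50.91 in FRG+NTBC livers.

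**Figure D4:**
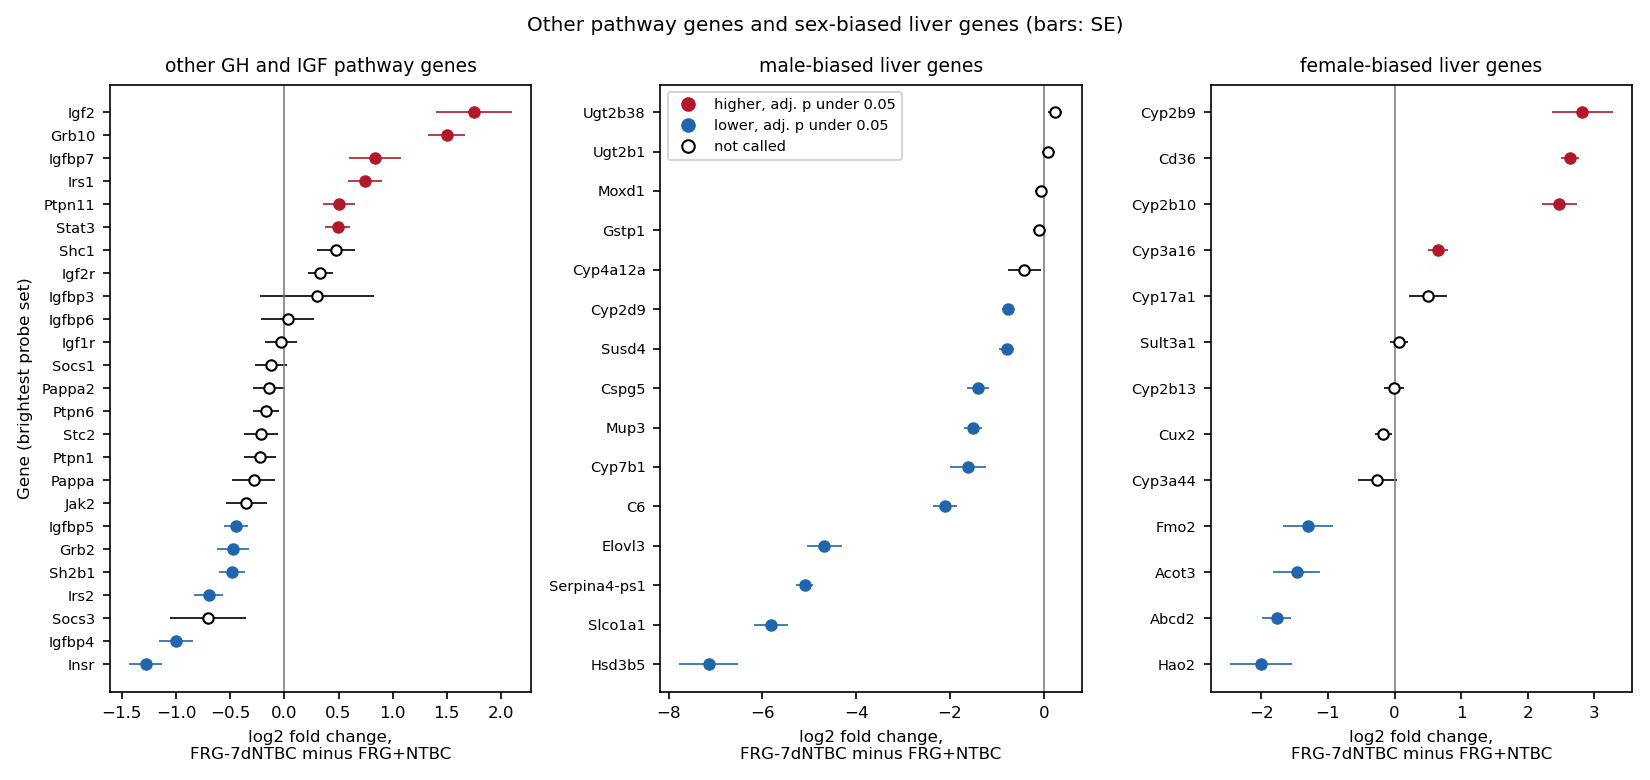
Log2 fold change of FRG-7dNTBC over FRG+NTBC livers (x axis) with its SE for each measured gene (y axis) of the other pathway genes, male-biased and female-biased liver genes, at the brightest probe set. Filled points passed an adjusted p under 0.05: the pathway panel has 6 on either side, the male-biased panel 10 on the lower side and the female-biased panel 4 on either side.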

How the data were processed

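Whole-liver RNA of 3 FRG-7dNTBC and 3 FRG+NTBC mice was measured on 1 Affymetrix mouse genome array each. The deposited values are linear intensities, for which the authors ran RMA (Robust Multiarray Analysis): they corrected background, matched quantiles between arrays and summarised the probes of each probe set by median polish. Transcriptome Analysis Console is the tool listed in the submitters' processing notes. Log2 was taken here. Quantile normalization gives the arrays nearly the same distribution, so a shift shared by most transcripts would not show.

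Probe sets were named from the array annotation, in which 34945 had 1 symbol, 932 several and 9160 none. Groups came from the labels and were compared by limma 3.58.1 under R 4.3.3 (lmFit then eBayes, two-sided, no covariates), with Benjamini-Hochberg adjustment over all 45037 probe sets and a call at an adjusted p under 0.05. Errors are SDs over mice unless named as the SE of the fit. Mice are separate animals by the study's methods. The smallest p that exact permutation of 6 arrays can give for a single value is 0.1. The number of arrays limits the precision.

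The members and lists were chosen with earlier results of these data known. Named were all probe sets of the 10 genes, up to 5 called genes of each of 3 other lists (pathway, male-biased, female-biased) with the largest change, and Jak2, Igf1r, Insr, Irs1, Irs2, Socs3, Igf2, Igfbp3, Igfbp4 and Cux2. Genes of these lists without a probe set of their own in the annotation were not analysed here. Statistics were tested on simulated data, in which 56 of 100 changes of 2-fold and 95 of 100 changes of 5-fold were recovered. A 2-fold change can thus go uncalled with these arrays. As alternatives, arrays were scaled to a common 75th percentile or quantile-normalized again, variances were moderated robustly with a trend or left unmoderated, arrays were weighted, dim probe sets (log2 mean under the median) or _s_at and _x_at probe sets were dropped, replicate number was added as a block, each mouse was left out in turn, and genes were taken at the mean over their probe sets or counted in place of probe sets.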

Additional observations from a re-analysis of the deposited data

How the results depend on the processing

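Of the 16 member probe sets called, 9 stayed called under every alternative that included them and 7 lost the call under at least 1. Without moderation of the variances, 9 member probe sets were lower and 0 higher (limma fit without eBayes; 13 and 2 at an unadjusted p under 0.05), and over all probe sets 3141 were higher and 3336 lower, against 6284 and 6262. Member calls lost without moderation were Ghr 1451871_a_at, Stat5b 1422102_a_at, Socs2 1446085_at, Bcl6 1450381_a_at, Igf1 1452014_a_at, Igfbp1 and Igfbp2. The calls of Igf2, Irs1, Igfbp7, Cyp2b9 and Hao2 were lost as well. The number of higher member probe sets was 1 under scaling to the 75th percentile, quantile normalization, a trend with robust moderation and when counted as genes, and 1 to 3 without 1 mouse, against 2. Lower ones were 7 when counted as genes and 11 to 15 without 1 mouse, against 14. Pathway genes called higher were 3 under either scaling and without moderation and 3 to 6 without 1 mouse, against 6. Pathway genes called lower were 3 with the mean of a gene's probe sets and 3 to 5 without 1 mouse, against 6. Female-biased genes called higher were 2 without moderation and 3 to 5 without 1 mouse, and those called lower 1 without moderation, 2 without _s_at and _x_at probe sets, 2 with the mean of a gene's probe sets and 1 to 4 without 1 mouse, against 4 on either side. Male-biased genes called lower were 8 without moderation and 8 without _s_at and _x_at probe sets, against 10. They were 9 with the mean of a gene's probe sets and 9 to 10 without 1 mouse.

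The sign changed for 3 genes that were not called. Cish was 0.065 when FRG+NTBC replicate 2 was left out (-0.38 to 0.065 over the mice left out), and Igf1r was 0.0369 with array weights and -0.115 to 0.0899 over the mice left out. Igfbp3 was -0.22 to 0.743 over the mice left out, and negative without FRG-7dNTBC replicate 1 or FRG+NTBC replicate 3. The cause was not tested.

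No sign was seen that equal replicate numbers mark paired mice. Deviations of same-numbered mice from their group means correlated at 0.106, 0.0339 and -0.156, and those of differently numbered mice at -0.212 to 0.216. With 3 mice per group these values cannot exclude pairing. With the replicate number as a block, 13 member probe sets were lower and 2 higher, and 6076 of all probe sets were higher and 5272 lower. The filter on dim probe sets left out 22518, among them 3 member probe sets. Signal over background limits the dim probe sets, for which no detection calls were used here.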
